A study of Mus musculus with 8 samples.

Results

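Expression of 10 genes of the endothelin, gp130 and STAT3 stress response of Müller glia was followed in the mouse retina during exposure to hyperoxia. The genes were *Gfap*, *Edn2*, *Ednrb*, *Lif*, *Lifr*, *Il6st*, *Osmr*, *Stat3*, *Socs3* and *Fgf2*. Every probe set whose annotation named one of them was taken, which gave 27 probe sets among 45037, and 10 genes among the 18193 that a probe set named alone. The genes were chosen for their known roles with earlier results from these arrays in view, so their own values are given as a description.

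Retinal RNA from adult C57BL/6J mice (80 to 120 days old by the labels) was hybridised to 8 arrays. Exposure to 75% oxygen lasted 3, 7 or 14 days, and control mice (day 0) stayed in normal air, with 2 arrays at each of the 4 times. All of the mice had been raised in dim cyclic light. The study describes a pool of retinas from several males and females for each time. Whether both arrays of a time were hybridised from 1 pool is not given in the sources used here, and p-values then measure only the spread between these arrays, which may be technical.

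Müller glia span the depth of the retina and respond to photoreceptor damage by raising the intermediate filament *Gfap*. In the damaged mouse retina, photoreceptors are known to express endothelin 2, which acts on the endothelin B receptor of Müller glia, and Müller cells to express leukemia inhibitory factor (LIF). LIF binds its receptor together with gp130, the product of *Il6st*, and Janus kinases then phosphorylate STAT3, which induces its own inhibitor *Socs3*. In mouse retina this signalling is known to protect photoreceptors and to induce *Edn2*, *Fgf2* and *Gfap*.

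The deposited values are on a log2 scale with the median of each probe set over the 8 arrays set to 0. A value of 1 is therefore 2-fold above that median, and the values give no level of one gene relative to another. The markers of the retina could be compared between arrays but not checked for their presence. In RNA of whole retina, fewer cells of a type and less RNA per cell cannot be told apart.

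The second day 3 array and the second day 14 array stood apart from the other 6. Each was nearer to the other than any of the remaining 27 pairs of arrays were. *Gapdh* is measured near both ends of its transcript, and its 3' minus 5' value was 1.19 on the second day 3 array and 1.43 on the second day 14 array, where the other 6 lay between -0.32 and 0.12. The same difference for beta-actin was 1.003 and 1.24, where the others lay between -0.94 and 0.44. The part of RNA quality in the results was not tested, and the folds of the 10 genes at days 3 and 14 are given with and without these 2 arrays. The first day 3 array, then left alone, had an SD of 0.41 over all probe sets. It was 0.34 on the second day 3 array and 0.19 on the first day 14 array. Against the mean of the controls, the first day 3 array alone had 789 of 18193 genes 2-fold or more higher, and the first day 14 array 65. The quality measures published with the arrays place a raised *Gapdh* ratio on both arrays of a single time, not on arrays of different times, so whether labels were exchanged is not known. Every array is called by its label, and each direction at day 3 or day 14 holds for the arrays as labelled.

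Of the promoters of the 10 genes, 4 held a searched motif, and the stretch around it is shown because STAT factors act below gp130 and AP-1 in stress responses. A match is a description of the letters and not a measured binding site. The motifs were TTCNNNGAA, the core site of STAT factors, and TGANTCA, the site of AP-1, both of which read the same on either strand. Windows ran from 250 bases before the start of transcription to 50 bases after it, taken from RefSeq on GRCm38.p6. Each stretch is written 5′ to 3′ on the strand of the gene, and the capitals mark the motif. The genes lie on the minus strand of chromosome 11 (*Gfap*, chr11:102897181-102897280, and *Socs3*, chr11:117969466-117969565), the minus strand of chromosome 15 (*Osmr*, chr15:6874294-6874393) and the plus strand of chromosome 11 (*Lif*, chr11:4257318-4257417).
Gfap: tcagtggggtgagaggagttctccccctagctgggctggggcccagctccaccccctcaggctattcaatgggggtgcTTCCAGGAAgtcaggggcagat
Socs3: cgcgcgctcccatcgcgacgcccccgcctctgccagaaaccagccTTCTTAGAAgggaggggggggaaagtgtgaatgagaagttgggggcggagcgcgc
Osmr: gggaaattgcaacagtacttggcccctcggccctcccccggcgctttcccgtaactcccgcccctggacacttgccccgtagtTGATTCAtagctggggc
Lif: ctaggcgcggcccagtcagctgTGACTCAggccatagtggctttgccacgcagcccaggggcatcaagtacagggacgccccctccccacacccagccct

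The STAT core was found in the windows of 2 genes, *Gfap* and *Socs3*, and in 8.3% of 32851 promoters of the reference. The *Gfap* copy also matched the narrower form TTCCNGGAA, which 1.15% of promoters held. The AP-1 site was found in *Osmr* and *Lif*, and in 7.81% of promoters. The windows of *Edn2*, *Ednrb*, *Lifr*, *Il6st*, *Stat3* and *Fgf2* held neither motif, which concerns these letters in these windows alone.

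Over all 27 probe sets, 0 passed an adjusted p of 0.05 in limma at day 3, day 7 or day 14 against day 0 (0% of all probe sets passed at each time). The lowest adjusted p among them was 0.471 at day 3, 1 at day 7 and 0.588 at day 14. Before adjustment, 1 probe set was past 0.05 and higher at day 3, 0 at day 7 and 2 at day 14, against 4.83%, 0.429% and 3.14% of all probe sets at these times. The probe set at day 3 was 1426508_at of *Gfap*, and those at day 14 were 1426508_at and 1426509_s_at of *Gfap*. None of the 27 was past 0.05 and lower at day 3, day 7 or day 14, against 5.49%, 0.435% and 5.13% of all.

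Without a test, 7 of the 27 probe sets stood 2-fold or more above day 0 at day 3 (0.429% of all), 1 at day 7 (0.209%) and 7 at day 14 (0.271%). They belonged to *Gfap*, *Edn2*, *Osmr* and *Socs3* at days 3 and 14 and to *Edn2* at day 7. None stood 2-fold or more below day 0 at any time, where 1.1% of all probe sets did at day 3, 0.0844% at day 7 and 1.84% at day 14. Both arrays of a time lay above both control arrays in 8 of the 27 probe sets at day 3 (24.7% of all), in 6 at day 7 (12.3%) and in 15 at day 14 (27.7%). Both lay below in 2 at day 3 (17.8%), in 3 at day 7 (12.3%) and in 2 at day 14 (18.3%). With the probe set of the largest SD standing for a gene, the median log2 fold of the 10 genes was 0.32 after 3 days, 0.09 after 7 days and 0.55 after 14 days.

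The same counts were made without the 2 arrays that stand apart. The first day 3 array alone lay above both controls in 11 of the 27 probe sets (41% of all) and below in 8 (37.3%). The first day 14 array alone lay above in 18 (38.4%) and below in 3 (30.3%). The median log2 fold of the 10 genes was then 0.02 at day 3 and 0.28 at day 14, and by the probe set of the largest SD a 2-fold difference was left for *Gfap* alone, at day 14.

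**Figure D1:**
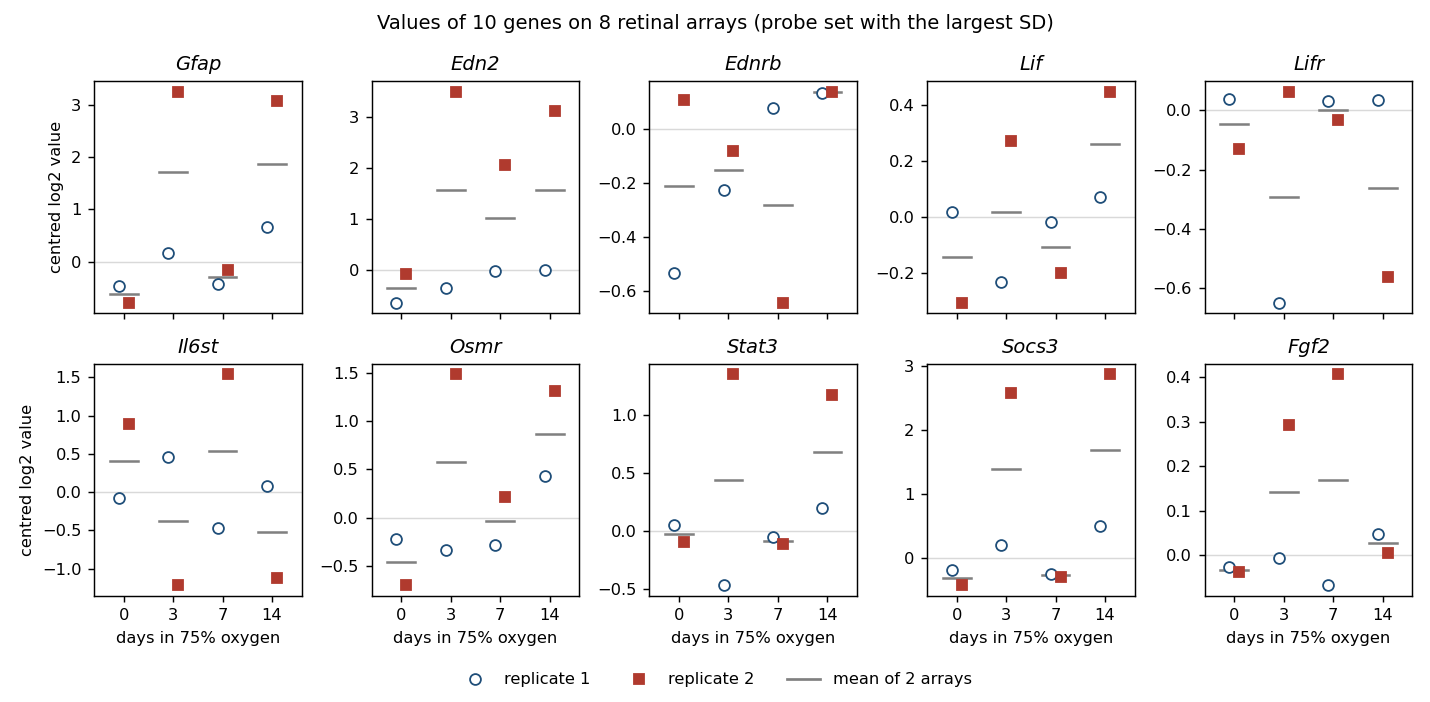
Centred log2 value (vertical axis) of each of the 10 genes, shown by the probe set whose SD was largest, against days in 75% oxygen (horizontal axis). Open circles are the first array of a time, filled squares the second and grey bars the mean of the 2 arrays, and the vertical scale differs between genes. The squares at days 3 and 14 are the highest points for *Gfap*, *Edn2*, *Osmr*, *Stat3*, *Socs3* and *Lif* and the lowest for *Il6st*.

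*Gfap*, the filament protein by which gliosis is scored, is measured by 3 probe sets. In their names, the endings s_at and x_at mark sets of which some or all probes can match other transcripts. Probe set 1440142_s_at stood at -0.47 and -0.79 on the control arrays, 0.17 and 3.26 after 3 days, -0.44 and -0.17 after 7 days and 0.66 and 3.08 after 14 days. All 6 exposed arrays lay above both control arrays and the 2 arrays that stand apart were the highest. The 2 arrays of day 3 differed by 3.10 and those of day 14 by 2.42. Its log2 fold over day 0 was 2.35 at day 3, 0.33 at day 7 and 2.50 at day 14 (SE 1.09, n = 2 arrays each). Without the second day 3 array the fold at day 3 was 0.80, and without the second day 14 array the fold at day 14 was 1.29. The study, from its own array values and a 2-fold limit, lists *Gfap* as unchanged at day 3 and higher at days 7 and 14. Its quantitative PCR gives *Gfap* below control at day 3 and above control at days 7 and 14.

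Probe set 1426509_s_at of *Gfap* stood at -1.02 and -1.32 on the control arrays, -0.13 and 2.83 after 3 days, -0.88 and 0.13 after 7 days and 0.24 and 2.58 after 14 days. Here too the 6 exposed arrays lay above both controls. Probe set 1426508_at stood at -0.99 and -1.17 on the control arrays, -0.14 and 1.59 after 3 days, -1.12 and 0.14 after 7 days and 0.17 and 0.87 after 14 days, so that the first day 7 array lay between the controls. Its log2 folds were 1.80 after 3 days, 0.59 after 7 days and 1.60 after 14 days (SE 0.63), and those of 1426509_s_at were 2.52, 0.80 and 2.59 (SE 1.08). From the first arrays alone, 1426508_at gave 0.93 after 3 days and 1.25 after 14 days, and 1426509_s_at gave 1.04 and 1.41. The 3 probe sets correlated with one another at r = 0.92 to 0.99 over the 8 arrays, a description of libraries they share.

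*Edn2*, the endothelin ligand, is measured by 1 probe set, 1449161_at. It stood at -0.63 and -0.06 on the control arrays, -0.34 and 3.51 after 3 days, -0.01 and 2.07 after 7 days and 0.01 and 3.12 after 14 days. The second array of each exposed time was high, while the first lay between the controls at day 3 and just above both at days 7 and 14. The 2 control arrays differed by 0.57. The log2 folds over day 0 were 1.93, 1.38 and 1.92 after 3, 7 and 14 days (SE 1.48, n = 2 arrays each). Without the second array of the time they were 0.01, 0.34 and 0.36.

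The high *Edn2* value at day 7 came from the second day 7 array, whose *Gapdh* 3' minus 5' value of -0.32 was the lowest of the 8. That array also had the highest median over the lens markers (3.49 over 11 crystallin and lens fibre genes). On the first day 7 array and the second day 0 array the lens median was 2.31 and 2.04 while *Edn2* stood at -0.01 and -0.06. The cornea markers (6 of 6 measured), 5 keratin genes and an aldehyde dehydrogenase, had medians of -1.60 and -1.12 after 3 days, -0.02 and -0.85 after 7 days and 1.63 and -0.05 after 14 days, against 1.04 and 2.20 on the control arrays. Both arrays lay below both controls for 5 of the 6 at days 3 and 7 and for 2 at day 14 (15.1%, 12.3% and 14.3% of all genes), and all 6 were lower than in controls at each time, though none passed an adjusted p of 0.05 in limma. Before adjustment 5 were past 0.05 and lower after 3 days, 5 after 7 days and 0 after 14 days (5%, 0.544% and 3.76% of all genes). The part of lens and cornea RNA in the values of the 10 genes was not tested.

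*Ednrb*, the endothelin B receptor, varied little, and its 3 probe sets stayed between -0.64 and 0.34 on all arrays. Probe set 1437347_at stood at -0.53 and 0.11 on the control arrays, -0.22 and -0.08 after 3 days, 0.08 and -0.64 after 7 days and 0.13 and 0.14 after 14 days. On this probe set both arrays lay above both controls only at day 14, and the log2 fold was 0.35 (SE 0.29), also without the second array. At days 3 and 7 its groups overlapped, with folds of 0.06 and -0.07. Probe set 1423594_a_at had folds of 0.06, 0.24 and 0.10 at days 3, 7 and 14 (SE 0.18), with both arrays above both controls at day 7 alone. Probe set 1426314_at had -0.17, -0.29 and -0.10 (SE 0.23), with both below at day 7 alone. From the first arrays of days 3 and 14 alone, 1423594_a_at gave 0.12 and 0.30 and 1426314_at gave 0.02 and 0.20. The 3 probe sets correlated at r = 0.01 to 0.32.

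*Lif*, the ligand that binds *Lifr* with gp130, is measured by 2 probe sets, whose values span less than those of *Gfap* or *Edn2*. Probe set 1450160_at stood at -0.18 and -0.16 on the control arrays, 0.00 and 0.21 after 3 days, -0.01 and -0.00 after 7 days and 0.06 and 0.05 after 14 days. All 6 exposed arrays lay above both controls, with log2 folds of 0.28 at day 3, 0.16 at day 7 and 0.22 at day 14 (SE 0.13), and 0.17 at day 3 and 0.23 at day 14 without the second array of the time. Across all probe sets, 4.73% had all 6 exposed arrays above both controls, and 3 of the 27 did, the other 2 being *Gfap* probe sets. None of the 27 had all 6 below both controls (1.76% of all).

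The other *Lif* probe set, 1421207_at, stood at 0.02 and -0.30 on the control arrays, -0.23 and 0.27 after 3 days, -0.02 and -0.20 after 7 days and 0.07 and 0.45 after 14 days. Its groups overlapped at days 3 and 7, and at day 14 both arrays were above both controls. The log2 fold was 0.16 at day 3, 0.04 at day 7 and 0.40 at day 14 (SE 0.23), and -0.09 at day 3 and 0.22 at day 14 without the second array of the time. The 2 probe sets of *Lif* thus gave different orders of the exposed times.

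**Figure D2:**
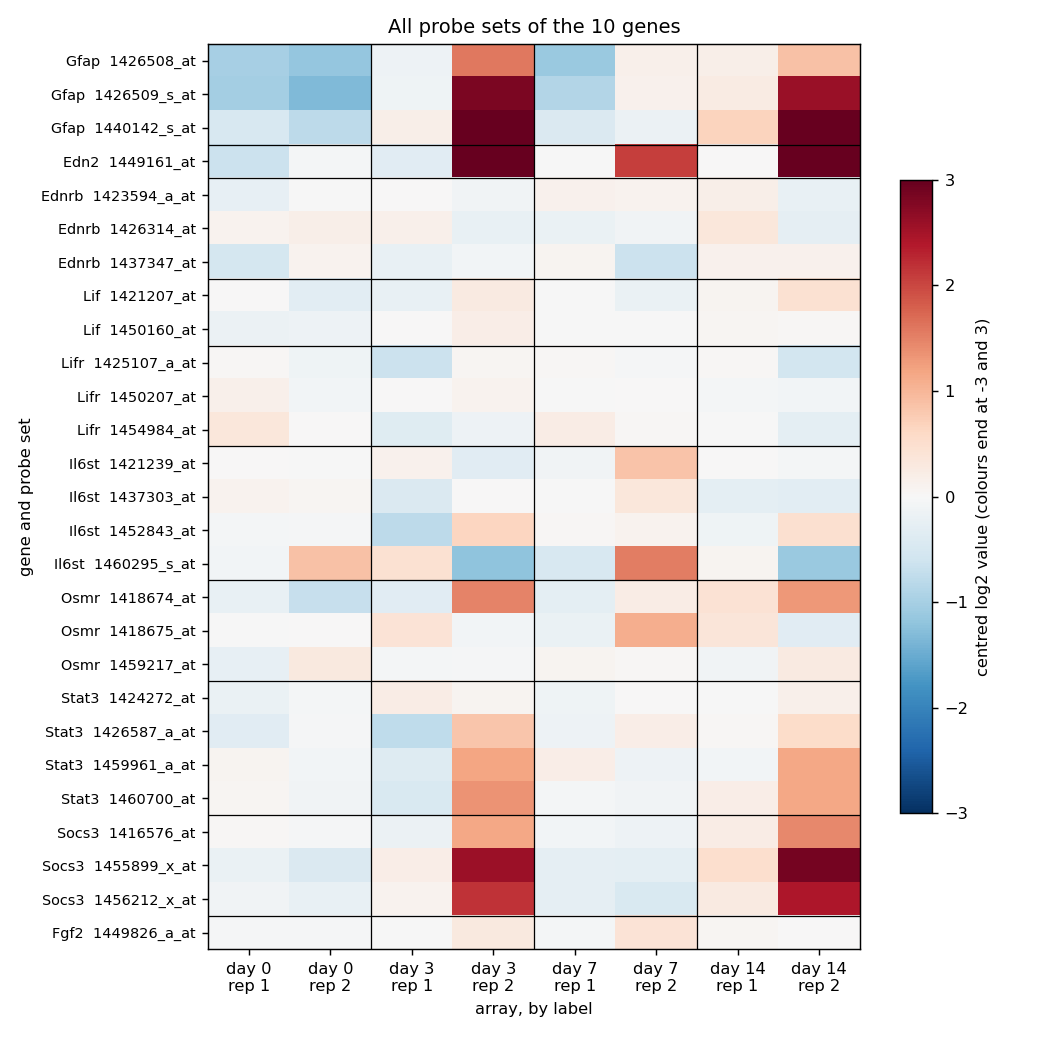
Centred log2 value (colour) of all 27 probe sets (rows, grouped by gene) on the 8 arrays (columns, by day and replicate). The columns of the second day 3 array and the second day 14 array hold most of the strong colours, while the rows of *Ednrb*, *Lif* and *Lifr* stay pale.

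The receptor genes differed in their patterns. *Osmr*, the oncostatin M receptor subunit that pairs with gp130, stood on probe set 1418674_at at -0.22 and -0.69 on the control arrays, -0.33 and 1.49 after 3 days, -0.28 and 0.22 after 7 days and 0.43 and 1.31 after 14 days. At day 14 both arrays lay above both controls, and at days 3 and 7 the first array lay between the controls. The log2 folds were 1.03, 0.42 and 1.33 at days 3, 7 and 14 (SE 0.59), and 0.12 at day 3 and 0.89 at day 14 without the second array of the time.

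The other *Osmr* probe sets did not follow it. Probe set 1418675_at had its highest value, 1.09, on the second day 7 array and stood at -0.09 and -0.35 on the second day 3 and day 14 arrays. It correlated with 1418674_at at r = -0.23 over the 8 arrays. Probe set 1459217_at stayed between -0.25 and 0.30.

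*Il6st* encodes gp130, the subunit shared by the receptors of this cytokine family, and its 4 probe sets disagreed. Probe set 1460295_s_at stood at -0.08 and 0.89 on the control arrays, 0.45 and -1.22 after 3 days, -0.48 and 1.54 after 7 days and 0.08 and -1.12 after 14 days. The 2 arrays that stand apart were the lowest, and the 2 control arrays differed by 0.96. Its log2 folds were -0.79, 0.13 and -0.93 after 3, 7 and 14 days (SE 0.84), and 0.05 at day 3 and -0.33 at day 14 without the second array of the time. Over the 8 arrays this probe set correlated with the *Gapdh* 3' minus 5' value at r = -0.87, and over the other 6 at r = -0.88. With the beta-actin value it correlated at r = -0.94 and -0.88.

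Probe set 1452843_at of *Il6st* stood highest on those same arrays, at 0.64 and 0.47, and correlated with 1460295_s_at at r = -0.55. Probe set 1437303_at stood at 0.11 and 0.07 on the control arrays, -0.44 and 0.01 after 3 days, -0.01 and 0.34 after 7 days and -0.29 and -0.32 after 14 days. Both arrays lay below both controls at days 3 and 14, with log2 folds of -0.30 and -0.39 (SE 0.20), and -0.53 and -0.38 from the first arrays alone. Probe set 1421239_at stayed within -0.34 and 0.13 except on the second day 7 array, where it stood at 0.86.

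*Lifr*, the LIF receptor, had both arrays below both controls at days 3 and 14 on 1 of its 3 probe sets. Probe set 1454984_at stood at 0.34 and 0.01 on the control arrays, -0.37 and -0.15 after 3 days, 0.22 and 0.03 after 7 days and -0.01 and -0.30 after 14 days. Both arrays lay below both controls at days 3 and 14, with log2 folds of -0.43 and -0.33 (SE 0.19), and -0.54 and -0.18 from the first arrays alone. The probe set with the largest SD, 1425107_a_at, had 1 low array at each of these times, -0.65 on the first day 3 array and -0.56 on the second day 14 array, and stayed between -0.13 and 0.06 on the other 6. Its log2 folds of -0.25 at day 3 and -0.22 at day 14 were -0.60 and 0.08 from the first arrays alone. On probe set 1450207_at the groups overlapped at days 3, 7 and 14, with log2 folds of 0.02, -0.03 and -0.10 (SE 0.14).

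*Stat3*, the transcription factor downstream of gp130, was highest on the 2 arrays that stand apart in 3 of its 4 probe sets. Probe set 1460700_at stood at 0.05 and -0.10 on the control arrays, -0.46 and 1.35 after 3 days, -0.05 and -0.11 after 7 days and 0.20 and 1.17 after 14 days. The 2 arrays of day 3 lay on opposite sides of both controls, and at day 14 both lay above. The log2 fold was 0.46 at day 3, -0.06 at day 7 and 0.70 at day 14 (SE 0.58), and -0.44 at day 3 and 0.22 at day 14 without the second array of the time. Probe sets 1459961_a_at (1.17 on each of the 2 arrays that stand apart) and 1426587_a_at (0.84 and 0.55) had the same 2 arrays highest, and the first day 3 array was their lowest, at -0.39 and -0.76.

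The remaining *Stat3* probe set, 1424272_at, stood at -0.20 and -0.05 on the control arrays, 0.22 and 0.08 after 3 days, -0.13 and 0.01 after 7 days and -0.01 and 0.15 after 14 days. At days 3 and 14 both arrays lay above both controls, and the first array of day 3 was the higher. Its log2 folds were 0.27, 0.06 and 0.20 after 3, 7 and 14 days (SE 0.14), and 0.34 at day 3 and 0.12 at day 14 without the second array of the time. It correlated with the other *Stat3* probe sets at r = 0.14 to 0.26 over the 8 arrays.

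*Socs3*, the feedback inhibitor that binds gp130, is measured by 3 probe sets that correlated at r = 0.98 to 0.99 over the 8 arrays. Probe set 1455899_x_at stood at -0.19 and -0.43 on the control arrays, 0.19 and 2.58 after 3 days, -0.26 and -0.29 after 7 days and 0.49 and 2.87 after 14 days. At days 3 and 14 both arrays lay above both controls, and at day 7 both lay between them. The log2 folds were 1.70, 0.03 and 1.99 at days 3, 7 and 14 (SE 0.93), and 0.51 at day 3 and 0.80 at day 14 without the second array of the time. Probe sets 1456212_x_at and 1416576_at gave 1.29 and 0.49 at day 3 and 1.50 and 0.83 at day 14, with the 2 arrays that stand apart again the highest. Their folds at day 7 were -0.21 and -0.12, and on each of them both day 7 arrays lay below both controls. On 1416576_at the first day 3 array also lay below both controls. From the first arrays alone, 1456212_x_at gave 0.25 at day 3 and 0.43 at day 14, and 1416576_at gave -0.17 and 0.23. Over the 8 arrays, 1455899_x_at correlated with the *Gapdh* 3' minus 5' value at r = 0.95 and *Gfap* 1440142_s_at at r = 0.93. Over the other 6 arrays the correlations were 0.16 and 0.02 for these, 0.68 for *Socs3* 1416576_at, 0.71 for *Stat3* 1460700_at, 0.82 for *Stat3* 1459961_a_at and 0.85 for *Lif* 1421207_at, and over all 27 probe sets they ran from -0.88 to 0.85.

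*Fgf2*, a growth factor that protects photoreceptors, is measured by 1 probe set, 1449826_a_at. It stood at -0.03 and -0.04 on the control arrays, -0.01 and 0.29 after 3 days, -0.07 and 0.41 after 7 days and 0.05 and 0.01 after 14 days. The highest array was the second of day 7, and at days 3 and 14 both arrays lay above both controls. At day 14 they did so by less than the 2 arrays of day 3 or of day 7 differed. The log2 folds were 0.18, 0.20 and 0.06 at days 3, 7 and 14 (SE 0.19), and 0.03, -0.03 and 0.08 without the second array of the time. Over the 8 arrays *Fgf2* correlated with *Edn2* at r = 0.65, and over the 6 arrays other than the 2 that stand apart at r = 0.95. The second of these values rests largely on the second day 7 array, where *Edn2* stood at 2.07 and *Fgf2* at 0.41. On the others of the 6, *Edn2* lay between -0.63 and 0.01 and *Fgf2* between -0.07 and 0.05.

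**Figure D3:**
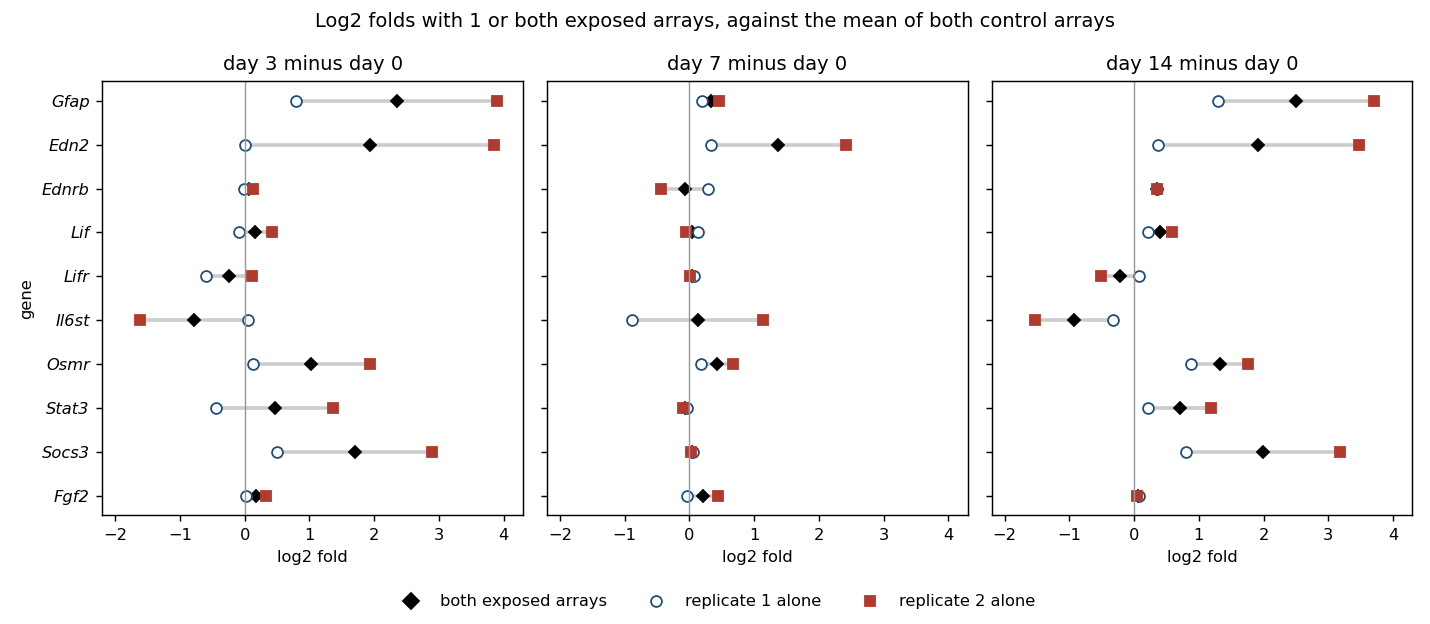
Log2 fold over day 0 (horizontal axis) of each gene (rows), shown by the probe set whose SD was largest, at days 3, 7 and 14, always against the mean of both control arrays. Diamonds are folds from both exposed arrays, open circles from the first array alone and squares from the second alone, and for *Gfap* at day 3 the circle stands at 0.80 and the square at 3.89.

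The 2 arrays that stand apart were both above the other 6 in 13 of the 27 probe sets (16% of all), from 7 genes. These were the 3 probe sets each of *Gfap* and *Socs3*, 3 of *Stat3* and 1 each of *Edn2*, *Lif*, *Osmr* and *Il6st*. They were both below the other 6 in 2 probe sets (9.59% of all), 1 of *Ednrb* and 1 of *Il6st*. *Gfap* and *Socs3* correlated at r = 0.99 over the 8 arrays and at r = 0.95 over the other 6, and *Gfap* and *Osmr* at r = 0.96 and 0.77. *Gfap* and *Stat3* correlated at r = 0.93 over the 8 arrays and 0.11 over the other 6, and *Gfap* and *Edn2* at r = 0.85 and 0.06. These correlations describe 8 arrays that were normalised together and share the conditions.

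Between exposed times, 0 of the 27 probe sets passed an adjusted p of 0.05 in limma (0% of all at day 7 against day 3, day 14 against day 3 and day 14 against day 7). The order of the group means for *Gfap* was day 0, day 7, day 3 and day 14, at -0.63, -0.30, 1.71 and 1.87. The step between day 3 and day 14 (0.15) was less than the difference of 3.10 between the 2 arrays of day 3. *Socs3* ran day 0, day 7, day 3 and day 14, at -0.31, -0.28, 1.39 and 1.68, and the means of day 0 and day 7 differed by less than the 2 control arrays did. For *Edn2*, day 3 (1.58) and day 14 (1.57) were apart by 0.02 and day 7 stood at 1.03. Day 7 minus day 3 was -2.02 for *Gfap*, and day 14 minus day 7 was 2.17. Without the second arrays of days 3 and 14 these were -0.47 and 0.96. The lowest adjusted p between exposed times was 0.468, for probe set 1454984_at of *Lifr* at day 7 against day 3.

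The members were then set in the wider pathway. Of the other gp130 ligands, *Il11*, a member of the interleukin 6 family, stood at -0.12 and -0.09 on the control arrays, 0.36 and 0.33 after 3 days, 0.00 and -0.06 after 7 days and -0.00 and 0.38 after 14 days. All 6 exposed arrays lay above both controls, and its log2 fold was 0.46 at day 3 (SE 0.16). *Ctf1*, cardiotrophin 1, also had all 6 exposed arrays above both controls, with log2 folds of 0.36 at day 3, 0.14 at day 7 and 0.47 at day 14 (SE 0.13) and an adjusted p of 0.472 at day 3 in limma. *Clcf1* gave 0.44, 0.06 and 0.26. From the first arrays alone, *Ctf1* gave 0.40 at day 3 and 0.41 at day 14, *Il11* gave 0.47 and 0.10 and *Clcf1* gave 0.58 and 0.21. Of 6 ligands other than *Lif* that were measured by a probe set of their own, 6 were higher at day 3, 3 at day 7 and 6 at day 14, and both arrays lay above both controls for 4 at day 3, 2 at day 7 and 5 at day 14, where 26.9%, 10.8% and 31.5% of all genes did. None passed an adjusted p of 0.05 (0% of all genes). Before adjustment, 3 were past 0.05 and higher at day 3, 0 at day 7 and 1 at day 14 (6.58%, 0.423% and 4.3% of all genes).

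Of the other receptor subunits, *Cntfr*, the receptor of ciliary neurotrophic factor, had log2 folds of 0.48, 0.14 and 0.59 after 3, 7 and 14 days. The JAK and STAT genes were split, with 4 of 9 higher and 5 lower at day 3 and 3 higher and 6 lower at day 14. *Jak3* had folds of 0.59, -0.01 and 0.61 at days 3, 7 and 14, *Jak1* had -0.21, 0.52 and -0.55 and *Stat6* had -0.04, -0.03 and 0.69. On the first arrays of days 3 and 14 alone, *Jak3* gave 0.39 and 0.36, *Jak1* gave 0.20 and -0.52 and *Stat6* gave -0.30 and 0.34. Inhibitors of the pathway other than *Socs3* were split too, with 5 of 15 higher at day 3 and 8 at day 14. None of these 9 or 15 genes passed an adjusted p of 0.05 in limma, and before adjustment 1 of the 9 was past 0.05 and higher at day 3 and 2 at day 14, and 1 of the 15 at day 3 and 0 at day 14 (6.58% and 4.3% of all genes). From the first arrays alone, 7 of the 9 and 4 of the 15 were higher at day 3, where 10076 of 18193 genes were. At day 14, 4 of the 9 and 8 of the 15 were higher, where 10914 of 18193 genes were. *Socs2* had folds of 0.68, -0.40 and 0.51, and *Pias1* had -0.41, 0.23 and -0.72. *Pias3*, whose product inhibits STAT3, had -0.50, 0.05 and -0.72, but 0.10 and -0.12 from the first arrays of days 3 and 14.

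Genes known as targets of STAT3 were mostly higher at days 3 and 14. Of 18 targets other than the members, 16 were higher at day 3, 7 at day 7 and 16 at day 14, and 5 were 2-fold or more higher at day 3 and 8 at day 14 (0.77% and 0.484% of all genes). None passed an adjusted p of 0.05 in limma, and before adjustment 4 were past 0.05 and higher after 3 days, 0 after 7 days and 5 after 14 days (6.58%, 0.423% and 4.3% of all genes). Their median log2 fold was 0.42 at day 3, -0.05 at day 7 and 0.70 at day 14, against 0.07, -0.01 and 0.09 over all genes. By array, the median value of the 18 was -0.04 and 0.95 after 3 days and 0.15 and 0.85 after 14 days, against -0.19 and -0.15 on the control arrays, so that it was high on the 2 arrays that stand apart. From the first arrays alone, 12 of the 18 were higher at day 3 and 14 at day 14 (10076 and 10914 of 18193 genes). Their median folds were 0.28 and 0.38, against 0.05 and 0.06 over all genes. Then 1 of the 18 was 2-fold or more higher at day 3 and 3 were at day 14, against 789 and 65 of 18193 genes. *Cebpd*, a transcription factor of the acute phase, had folds of 2.27, 0.03 and 2.30. *Bcl3*, a partner of NF-kappa B, had 1.69, 0.09 and 1.72, and the protease inhibitor *Serpina3n* had 1.43, 0.82 and 1.87. From the first arrays of days 3 and 14 alone, *Cebpd* gave 1.35 and 1.44, *Bcl3* gave 0.41 and 0.72 and *Serpina3n* gave 0.48 and 1.48.

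**Figure D4:**
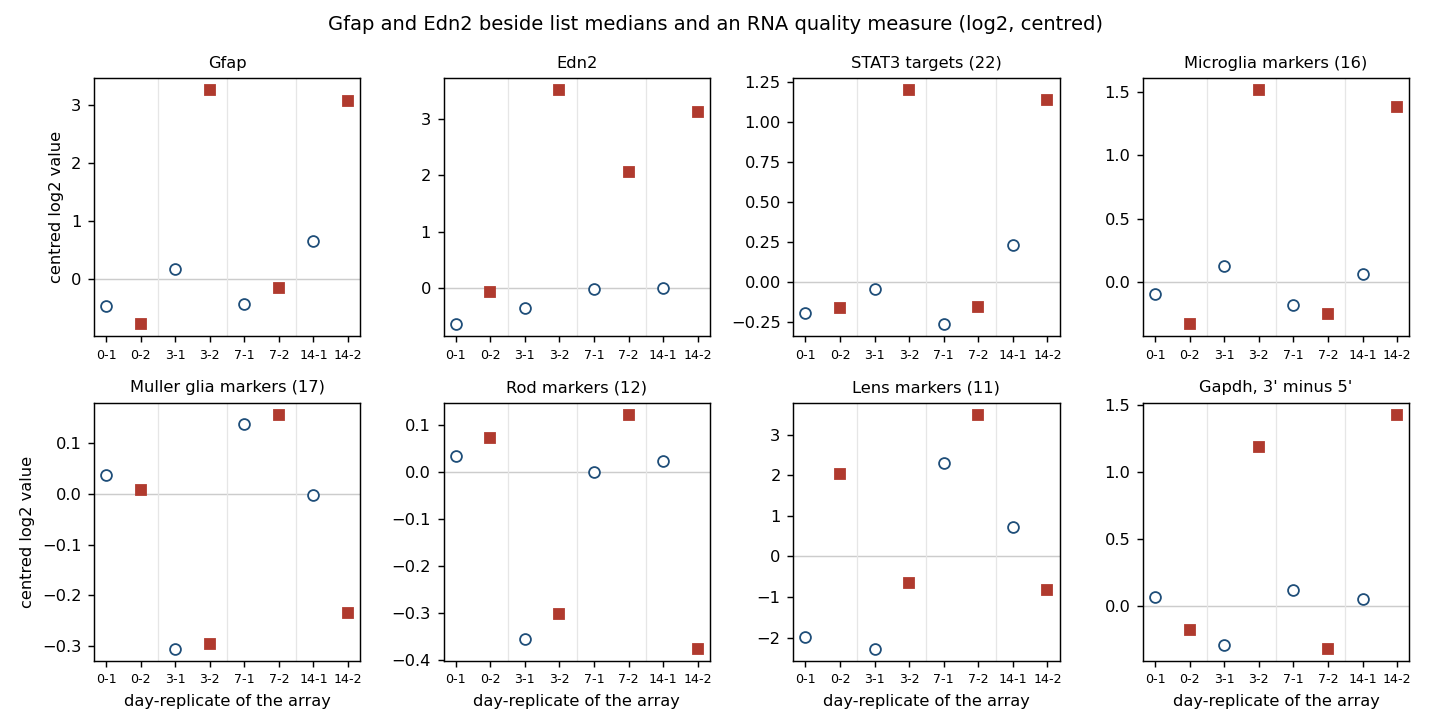
Centred log2 value (vertical axis, its scale differing between panels) of *Gfap* and *Edn2*, the median over the genes of 5 lists and the *Gapdh* 3' minus 5' difference, for each array by day and replicate (horizontal axis; open circles are the first array of a time and squares the second). The STAT3 targets, the microglial markers and the *Gapdh* difference are highest on the second arrays of days 3 and 14, while the lens markers are highest on the second day 7 array.

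The median of all 22 STAT3 targets, 4 of which are members, was 1.20 on the second day 3 array and 1.14 on the second day 14 array, against -0.26 to 0.23 on the other 6. The microglial markers (16 of 16 measured), which include complement and Fc receptor genes, gave 1.51 and 1.38 on those arrays and -0.33 to 0.13 on the others. With both arrays of a time, 8 of the 16 were 2-fold or more higher at day 3 and 8 at day 14 (0.77% and 0.484% of all genes). On the first arrays alone, 4 and 0 were (789 and 65 of 18193 genes). There 13 of the 16 were higher at day 3 and 16 at day 14 (10076 and 10914 of 18193 genes). Their median folds were 0.42 and 0.32, against 0.05 and 0.06 over all genes. The Müller glia markers (17 of 17 measured), such as *Glul* and *Rlbp1*, gave -0.30 and -0.24 on the second arrays of days 3 and 14 and -0.31 to 0.16 on the others. Of these 17, 15 were lower than in controls at day 3, 5 at day 7 and 12 at day 14. None passed an adjusted p of 0.05 in limma, and before adjustment 5 were past 0.05 and lower after 3 days, 0 after 7 days and 0 after 14 days (5%, 0.544% and 3.76% of all genes). The rod markers (12 of 14 measured) had medians of -0.36 and -0.30 after 3 days, -0.00 and 0.12 after 7 days and 0.02 and -0.38 after 14 days, against 0.03 and 0.07 on the control arrays. The part of microglia in the values of *Gfap*, *Socs3* and *Osmr* was not tested. The median of the astrocyte markers (7 of 8 measured) lay between -0.27 and 0.35 on the 8 arrays. Single markers varied more, such as *Gja1*, which ran from -2.38 to 0.83. The median log2 fold of the list was 0.10, 0.05 and 0.49 at days 3, 7 and 14, and 0.17 at day 3 and 0.27 at day 14 from the first arrays alone. Astrocytes are also known to express *Gfap*, and its share from astrocytes cannot be told apart.

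In the endothelin system, *Edn3*, another ligand of the B receptor, stood at -0.89 and -0.67 on the control arrays, -0.06 and 0.15 after 3 days, 0.06 and -1.50 after 7 days and 0.31 and 0.22 after 14 days. Both arrays lay above both controls at days 3 and 14, and the second day 7 array was the lowest of the 8. Its log2 folds were 0.83, 0.06 and 1.05 at days 3, 7 and 14 (SE 0.45), and 0.72 at day 3 and 1.09 at day 14 from the first arrays alone. *Ece1*, the enzyme that cleaves the endothelin precursors, had -0.48, 0.01 and -0.28. Among the 10 genes of the FGF family and its receptors other than *Fgf2*, 5 were higher and 5 lower at day 3, 9 higher and 1 lower at day 7 and 6 higher and 4 lower at day 14, and none passed an adjusted p of 0.05 in limma. *Fgfr1*, a receptor, had a fold of -0.87 at day 3, *Fgf14* one of 0.75 at day 3 and *Fgf9* one of -0.53 at day 14.

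Genes whose pattern was most like that of a member were found by Pearson r over the 8 arrays. For *Gfap* they were *Lypd6b* (r = 0.996), the complement gene *C1qc* (0.99) and *Bcl3* (0.99), with r of 0.97, 0.92 and 0.86 over the 6 arrays other than the 2 that stand apart. For *Edn2* they were *Mark1*, *Tspyl3* and *Fgf2os* (0.97 each), with 0.92, 0.96 and 0.92 over the 6. Among the 6, the second day 7 array was the highest for *Edn2* and for each of these 3 genes. *Fgf2os*, transcribed opposite *Fgf2*, stood at -0.25 and -0.21 on the control arrays, -0.02 and 1.52 after 3 days, -0.16 and 0.46 after 7 days and 0.02 and 1.24 after 14 days. It was high on the second array of every exposed time as *Edn2* was, which follows from its choice by likeness to *Edn2* on these arrays. For *Lif* they were *Hyou1*, *Ptprc* and *Fitm2* (0.99 each). For *Socs3* they were *C1qc*, *Lypd6b* and *Shisa5*.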

How the data were processed

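Retinal RNA was measured on 8 Affymetrix mouse arrays, 2 at each of 4 times, grouped by the time that its title gives. The log2 values deposited by the authors were made with RMA, which subtracts background, quantile normalises and summarises the probes of a set. The RMA version is not given in the sources used here. Each probe set had a median of 0 (tolerance 1e-06), a centring that the authors do not describe. The methods describe MAS5 values, which were not used. After removal of 64 controls, 45037 probe sets were tested, with no filter on signal since no level is held.

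Means of the 4 times were fitted by limma 3.58.1 under R 4.3.3 (prior degrees of freedom 2.71, residual 4), and p-values were adjusted by Benjamini-Hochberg over all 45037 probe sets at 0.05. Python 3.11.15, numpy 2.4.6 and pandas 2.3.3 gave the counts, medians and correlations. The fit was tested on simulated data. The members and lists were chosen with earlier results of these data known. Named genes were all members, up to 3 genes of each pathway list with the largest fold at day 3 or 14, and the 3 genes most like *Gfap*, *Edn2*, *Lif* and *Socs3*. A gene of several probe sets is given by that with the largest SD unless a probe set is named. The number of arrays limits the precision. The alternatives were another scaling, a replicate block, robust fitting, a fit of the compared groups alone, other probe sets, a filter on SD, linear means and each array left out. A lone array left at a time was taken to have the spread of the other groups. Leaving out the second arrays of days 3 and 14 together was chosen after seeing the data.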

Additional observations from a re-analysis of the deposited data

How the results depend on the processing

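In each alternative fit, 0 of the 27 probe sets passed an adjusted p of 0.05 at day 3, day 7 or day 14 in limma. The lowest adjusted p was 0.149, at day 3 with the second arrays of days 3 and 14 both left out. Across the arrays left out in turn, the number of probe sets above both controls ran from 11 to 17 at day 3, from 7 to 15 at day 7 and from 16 to 18 at day 14, and the number below from 3 to 8 at day 3, from 5 to 9 at day 7 and from 3 to 8 at day 14. With 1 array in a group fewer conditions have to hold, which raises these counts. With both arrays out, 8 lay below at day 3. The median fold over the 10 genes ran from 0.02 to 0.89 at day 3, from 0.10 to 0.23 at day 7 and from 0.28 to 0.89 at day 14. With the mean of a gene's probe sets in place of that with the largest SD, *Osmr* stood at 0.47 at day 14 and 26 of 30 folds kept their sign, and 28 of 30 did with a further quantile normalization. Of the folds of single genes, 14 moved by more than the SD between arrays and 106 by less when 1 array was left out. With both second arrays of days 3 and 14 out, the counts were 5 and 15. Under another scaling, the mean of probe sets or linear means they were 1 and 119. Leaving out 1 array moves a fold by a set part of the gap between the 2 arrays of that time. The SD is made from those same gaps, so for each gene no more than 1 time could pass it. The counts with arrays left out therefore do not measure how stable the folds are. Single folds were not compared in the other fits. By their numbers the replicates did not pair the arrays across all times. The difference of the second array from the first correlated at r = 0.44 between days 0 and 7 and at 0.55 between days 3 and 14. Between the other times r ran from -0.40 to -0.22. A pairing with the numbers in another order was not tested. With a replicate block by the numbers as labelled, the lowest adjusted p in limma was 0.503 at day 3, 1 at day 7 and 0.508 at day 14. With 2 arrays a time, only differences well beyond the spread between arrays could pass.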
